A study of Mus musculus with 9 samples.

Results

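The genes described here handle cholesterol in the retina. They are 33 protein-coding genes of 3 roles, namely 18 enzymes of the mevalonate and sterol synthesis pathway, 6 genes that control or respond to sterol sensing by SREBP, and 9 genes of sterol efflux, lysosomal export, esterification and oxysterol formation. They were chosen by symbol, and all 33 had a row among the 55414 genes of the deposited count table. Transcripts were counted in retina of Balb/c mice in 3 groups of 3 libraries, which were retina after light damage with A74, retina after light damage alone, and control retina. Bright light in albino eyes is a model of photoreceptor degeneration, and P2RX7, named in the title as the target inhibited, is a receptor channel opened by extracellular ATP. The labels give all groups the same tissue and batch date and do not spell out A74, its dose or vehicle, the light exposure, or the age and sex of the animals. Whether the libraries of a group came from separate mice is not stated. Sex-linked transcripts, given below, differ among the control libraries, so these did not all come from 1 mouse. A p-value here reflects only how far these libraries spread, which may be partly technical.

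The mevalonate pathway builds isoprenoids and sterols from acetyl units. When membrane sterol is low, SCAP carries the SREBP transcription factors out of the endoplasmic reticulum, they are cut, and they switch on the synthesis genes, while the INSIG proteins hold the complex back when sterol is ample. When sterol accumulates, oxysterols activate the liver X receptors (LXR), which switch on the membrane exporters ABCA1 and ABCG1. In the retina, photoreceptor outer segments are rich in membrane lipid, and Müller glia and microglia take up and pass on lipid released from dying cells.

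Promoter stretches of 4 genes are shown, Hmgcs1 and Insig1 because they hold the sterol response core of SREBP targets, and Abca1 and Ch25h as genes of efflux and of oxysterol formation that were called in both comparisons with light damage libraries. RefSeq promoter windows of build GRCm38.p6 matched 27 of the 33 genes. The 200 bases before the start are printed 5′ to 3′ on the strand of the gene, from chr13:119690151-119690350 (plus strand) for Hmgcs1, chr5:28071212-28071411 (plus) for Insig1, chr4:53159896-53160095 (minus) for Abca1 and chr19:34475149-34475348 (minus) for Ch25h. Capitals mark matches on either strand to the sterol response core CACNCCAC, the E-box CACGTG, the box CCAAT and the cyclic AMP element TGACGTCA, none of which overlap here.
Hmgcs1: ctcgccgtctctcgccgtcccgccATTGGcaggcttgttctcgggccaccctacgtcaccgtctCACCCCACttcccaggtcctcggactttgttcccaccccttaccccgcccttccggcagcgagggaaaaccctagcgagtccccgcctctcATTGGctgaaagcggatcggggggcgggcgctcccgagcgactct
Insig1: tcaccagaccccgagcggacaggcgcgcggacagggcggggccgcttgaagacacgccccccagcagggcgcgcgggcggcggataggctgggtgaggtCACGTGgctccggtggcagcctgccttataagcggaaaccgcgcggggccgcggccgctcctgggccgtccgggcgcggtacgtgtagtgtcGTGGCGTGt
Abca1: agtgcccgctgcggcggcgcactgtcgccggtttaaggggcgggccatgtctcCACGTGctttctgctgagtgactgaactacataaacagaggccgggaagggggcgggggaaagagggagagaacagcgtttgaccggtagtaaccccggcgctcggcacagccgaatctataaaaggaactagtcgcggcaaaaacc
Ch25h: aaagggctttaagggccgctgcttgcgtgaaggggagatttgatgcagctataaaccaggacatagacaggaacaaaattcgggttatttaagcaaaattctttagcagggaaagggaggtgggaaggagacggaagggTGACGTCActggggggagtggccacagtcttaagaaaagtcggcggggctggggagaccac
Over the whole 300-base windows, 15 synthesis genes had 18 windows, since a gene can have several. The CCAAT box was found in 14 of these 18 windows (77.8%), against 37.4% of all 32851 windows in the table. It was found in 5 of 10 SREBP control windows (50%) and 3 of 8 efflux and oxysterol windows (37.5%). The GC box GGGCGG, not marked above, was found in 83.3%, 80% and 50% of the windows of these 3 lists, against 35.7% of all windows. The sterol response core was found in 2 of the 18 synthesis windows (11.1%), in Hmgcs1 and Acat2, and in Insig1, against 6.24% of all windows. The E-box was found in 7.15% and the cyclic AMP element in 1.79% of all windows. Among the 7 efflux and oxysterol genes with a window, only Abca1 held the E-box and only Ch25h the cyclic AMP element. A match is a run of letters and not a measured binding site.

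The 9 libraries held 14787972 to 18740434 counts. Levels are given as CPM, the count of a gene scaled to the library total with TMM factors, and they are not compared between genes because they are not corrected for length. A gene was called where edgeR's quasi-likelihood test gave a Benjamini-Hochberg adjusted p under 0.05 over the 17272 genes that passed a count filter. All 33 genes passed, Ch25h only through the light damage libraries. The libraries also differed in tissue content and in sex-linked transcripts. Genes of anterior eye tissue summed to 138 CPM in A74 replicate 1, to 183 and 238 CPM in light damage replicates 2 and 1 and to 202 and 275 CPM in control replicates 1 and 2, against 12.5 to 15.9 CPM in the other 4 libraries. Y-linked transcripts had 4249 to 5832 counts in replicates 1 and 2 of light damage and control and 0 in the other 5 libraries, so no A74 library had them. Xist had 17227 to 18172 counts in A74 libraries, 1 to 4 in light damage libraries and 1 to 22253 in control libraries. For A74 against light damage, the Xist difference and the treatment cannot be told apart. Every listed marker of rods, cones, bipolar, amacrine, ganglion and Müller cells was detected.

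Light damage was first compared with control. Npc2, which hands cholesterol to NPC1 inside the lysosome, was higher by 60.0%, Abca1, which exports it to apolipoproteins, by 48.8%, and Soat1, which esterifies it, by 26.3%. Abcg1, an exporter to lipoprotein particles, was lower by 21.1%. Besides Ch25h, 3 of 8 efflux and oxysterol genes rose and 1 fell, where 13.0% of all 17272 genes rose and 12.8% fell. Of the 18 synthesis genes 2 rose and 0 fell. These counts describe the lists and are no test of them.

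Npc2 had 86.1, 79.4 and 70.7 CPM in the light damage libraries, against 49.9, 52.3 and 45.4 CPM in the control libraries. The groups did not overlap, and the log2 fold change was 0.68 (SE 0.08, edgeR adjusted p = 2.84e-05). Abca1 had 68.3, 57.6 and 66.0 CPM in light damage libraries, against 45.0, 39.1 and 44.8 CPM in control libraries, again without overlap. Its log2 fold change was 0.57 (SE 0.08, edgeR adjusted p = 9.5e-05). Both genes were called under all 17 alternative analyses. Soat1 had 31.3, 27.9 and 28.3 CPM after light damage, against 25.3, 20.4 and 23.7 CPM in control. The groups were apart by a smaller distance, with a log2 fold change at 0.34 (SE 0.10, edgeR adjusted p = 0.0193). Without control replicate 2 the Soat1 change was 0.25 (edgeR adjusted p = 0.107), and without light damage replicate 1 it was 0.29 (edgeR adjusted p = 0.0703), over a range of adjusted p from 0.00428 to 0.107 in all alternatives.

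Ch25h encodes the enzyme that makes 25-hydroxycholesterol, an oxysterol of activated macrophages that also blocks SREBP processing. It was near absent in control, with 45, 29 and 11 counts in the light damage libraries and 5, 1 and 0 counts in the control libraries. The ratio of summed counts was 12.6, with a 95% exact interval of 5.57 to 35.4 that covers counting error only. The edgeR test, which includes the spread between libraries, gave an adjusted p of 0.00445. Since Ch25h passed the filter only where it was high, its call is not independent of the filter. Of its 6 control counts 5 came from control replicate 1, and without that library the fitted log2 change was 5.40 in place of 3.57.

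Abcg1 fell. It had 115, 125 and 143 CPM in light damage libraries, against 164, 166 and 155 CPM in control libraries, with no overlap and a log2 fold change at -0.34 (SE 0.07, edgeR adjusted p = 0.00255). The LXR receptor genes themselves were not called. Nr1h2, which encodes LXR beta, averaged 60.1 ± 1.23 CPM after light damage and 60.1 ± 0.823 CPM in control (SD, n = 3 each), and Nr1h3, which encodes LXR alpha, had 51 to 64 counts in light damage libraries and 40 to 57 in control libraries. Npc1, the lysosomal membrane partner of NPC2, had a log2 fold change at -0.04 (SE 0.07, edgeR adjusted p = 0.707). Cyp46a1, the neuronal cholesterol 24-hydroxylase, had 0.22 (SE 0.14, edgeR adjusted p = 0.270).

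**Figure D1:**
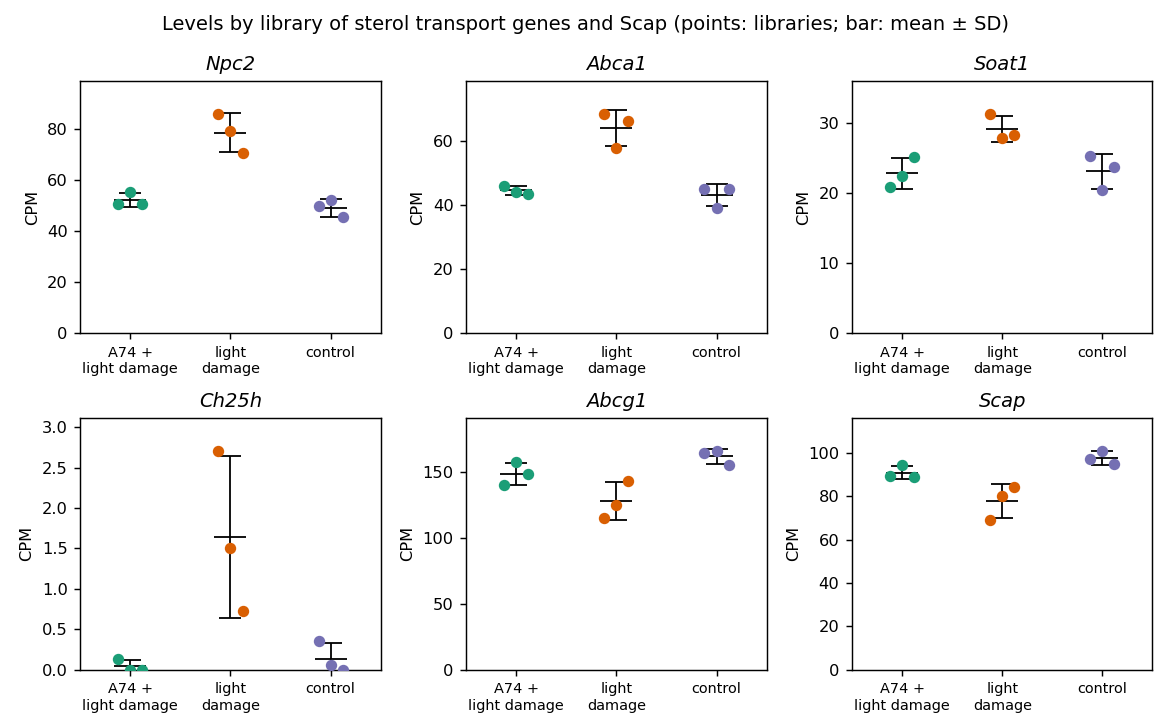
Level in CPM (vertical axes, linear and starting at 0) of Npc2, Abca1, Soat1, Ch25h, Abcg1 and Scap in each library of retina with A74 and light damage, light damage alone and control; points are libraries, and bars give the mean and SD of 3. Npc2 lies at 70.7 to 86.1 CPM after light damage alone and at 45.4 to 55.4 CPM in the other 6 libraries, while Abcg1 and Scap are lowest in light damage replicate 1.

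Among the synthesis enzymes, the summed level was 715 to 778 CPM in light damage libraries and 761 to 770 CPM in control libraries. Acat2, which joins acetyl units in the cytosol, had 30.3, 26.9 and 31.5 CPM after light damage, against 27.7, 22.4 and 22.5 CPM in control. Light damage replicate 2 lay below control replicate 1, and the log2 fold change was 0.29 (SE 0.10, edgeR adjusted p = 0.0450). Pmvk, the phosphomevalonate kinase, had 45.4, 52.7 and 47.2 CPM after light damage, against 39.8, 42.7 and 41.3 CPM in control, without overlap and with a log2 fold change at 0.23 (SE 0.08, edgeR adjusted p = 0.0391). Neither call was firm. Acat2 was called in 8 of 17 alternatives and lost without control replicate 2 or 3, light damage replicate 1 or 3, or A74 replicate 2 (0.23 to 0.30), with adjusted p from 0.0151 to 0.171. Pmvk was called in 12 of 17 and lost without control replicate 1, 2 or 3 or light damage replicate 2 (0.17 to 0.25), with adjusted p from 0.0177 to 0.183. DESeq2 called 0 of the 18.

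The other 16 synthesis genes ran from -0.36 for Tm7sf2, a sterol reductase, to 0.26 for Ebp, a sterol isomerase encoded on the X chromosome. The median over the 18 was -0.09 on the log2 scale, against 0.01 over all genes tested. For 16 of the 18 genes, the log2 fold change with 2 SE on either side stayed within 0.5 of zero. The exceptions were Tm7sf2, which ranged from 16.2 to 25.4 CPM among control libraries alone, and Fdps, the farnesyl diphosphate synthase gene, with 32 to 46 counts in any library and an SE of 0.24. Hmgcs1, an early enzyme of the pathway, had 162, 141 and 158 CPM after light damage, against 154, 151 and 150 CPM in control. It so spanned the control values (log2 fold change 0.02, SE 0.06, edgeR adjusted p = 0.871). Sqle, the squalene epoxidase, had -0.02 (SE 0.06, edgeR adjusted p = 0.809) and Fdft1, the squalene synthase, 0.03 (SE 0.06, edgeR adjusted p = 0.820). Lss, which closes the sterol ring, had 55.1, 51.6 and 58.4 CPM after light damage, against 60.8, 60.2 and 66.1 CPM in control (log2 fold change -0.18, SE 0.07, edgeR adjusted p = 0.0525). Lss was called lower in 6 of 17 alternatives, among them the rescaling by size factors, the replicate block, the anterior tissue term and the term for Y-linked transcripts, with adjusted p from 0.0155 to 0.259. Its groups did not overlap, as was the case for 40.6% of all genes, 20.6% higher and 20.0% lower. Without light damage replicate 3, Lss (-0.22, edgeR adjusted p = 0.0203), Ebp (0.30, edgeR adjusted p = 0.0384) and the desaturase gene Sc5d (-0.20, edgeR adjusted p = 0.0339) were called. Ebp was also called without control replicate 2 (0.32, edgeR adjusted p = 0.0440). Mvk, the mevalonate kinase (-0.10, SE 0.11), Nsdhl, a sterol dehydrogenase encoded on the X chromosome (0.05, SE 0.09), Hsd17b7, a sterol ketoreductase (-0.09, SE 0.11), and Dhcr7, the reductase of the last step (-0.13, SE 0.08), were not called. Idi1, an isomerase with 409 to 510 counts a library, has pseudogene rows that carry its name, of at most 12 counts a library. Pseudogenes under other names were not looked up, and how many reads Idi1 shares with any of them is not known.

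Of the 6 genes of SREBP control, Scap fell. It had 68.9, 80.3 and 84.0 CPM after light damage, against 96.9, 101 and 94.9 CPM in control, without overlap. The log2 fold change was -0.33 (SE 0.07, edgeR adjusted p = 0.00242), and it was called under all 17 alternatives. Srebf2, the SREBP of sterol synthesis, had -0.04 (SE 0.06, edgeR adjusted p = 0.601) and Srebf1, the SREBP of fatty acid synthesis, -0.11 (SE 0.06, edgeR adjusted p = 0.203). Insig1, whose promoter carries both the E-box and the sterol response core shown above, had 73.3, 68.1 and 74.4 CPM after light damage, against 72.8, 78.1 and 81.8 CPM in control (-0.11, SE 0.06, edgeR adjusted p = 0.226). Insig2 had -0.02 (SE 0.07, edgeR adjusted p = 0.874). For Stard4, a cytosolic sterol carrier that responds to SREBP, the value was -0.15 (SE 0.08, edgeR adjusted p = 0.186), and leaving out light damage replicate 3 gave a call (-0.24, edgeR adjusted p = 0.0313).

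**Figure D2:**
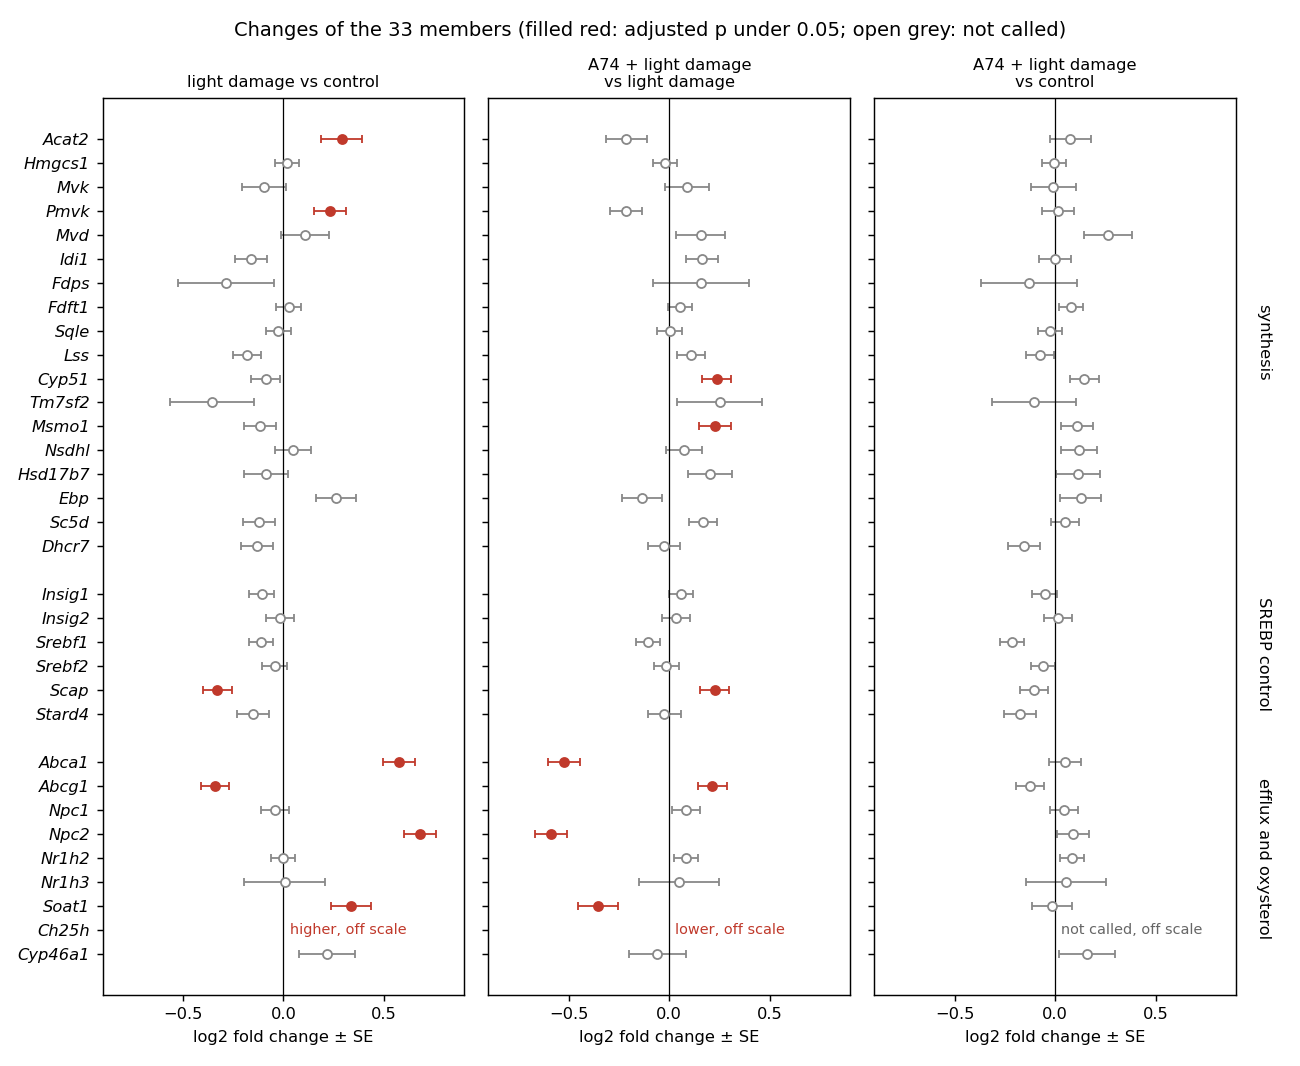
Log2 fold change with SE (horizontal axes) of the 33 genes in light damage against control, A74 with light damage against light damage, and A74 with light damage against control; filled red points passed an adjusted p of 0.05 and open grey points did not, and Ch25h lies off the scale. Most synthesis genes lie within 0.3 of zero in all panels, and Abca1, Npc2 and Soat1 lie to the right of zero in the first panel, to the left in the second and near zero in the third.

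Cell type markers moved in the same libraries. All 12 microglia and macrophage markers had counts, and they summed to 176 to 288 CPM in light damage libraries and 58.7 to 65.3 CPM in control, with 10 of 12 higher. Müller glia markers (7 of 8 higher) summed to 5880 to 6320 CPM after light damage and 4770 to 5440 CPM in control. Most of this sum was Glul, the marker not called, with a mean of 3320 of 6030 CPM after light damage and 3290 of 5210 CPM in control. Rod markers (7 of 10 lower) summed to 31400 to 45900 CPM after light damage and 54500 to 59400 CPM in control. Ganglion (5 of 6), bipolar (3 of 5) and amacrine cell markers (2 of 5) were also called higher, with 0 lower. Over all genes 13.0% were called higher and 12.8% lower. Both Npc2 and Ch25h had their highest values in light damage replicate 1 and their lowest in light damage replicate 3 within that group. The summed microglia markers ran the same way (288, 242 and 176 CPM in replicates 1, 2 and 3). Among them P2ry12 (8.6, 11.6 and 10.8 CPM), Tmem119 (4.21, 4.52 and 3.94 CPM) and Itgam (3.97, 5.46 and 3.61 CPM) did not. Apart from Glul (2880, 3610 and 3450 CPM), every Müller glia marker also fell from replicate 1 to replicate 3, such as Slc1a3 (472, 394 and 354 CPM). Marker sums of ganglion (870, 869 and 797 CPM), bipolar (1250, 1240 and 1140 CPM) and amacrine cells (1170, 1110 and 1030 CPM) fell likewise. Those of cones (888, 1150 and 1070 CPM) and endothelium (477, 357 and 391 CPM) did not. The order is thus not particular to microglia or Müller glia markers. Abca1 and Soat1 did not follow that order, since both were lowest in light damage replicate 2. Abcg1 and Scap were lowest in replicate 1 and highest in replicate 3, as were rod markers (31400, 39300 and 45900 CPM). The part of these cell types in the changes was not tested. In whole tissue, fewer cells of a type and less RNA per cell cannot be told apart.

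The second comparison set A74 with light damage against light damage alone. Npc2, Abca1 and Soat1 were lower with A74, and Abcg1 and Scap were higher. Ch25h was also lower, but it passed the count filter only through the light damage libraries, so its call is not independent of the filter. Among efflux and oxysterol genes besides Ch25h, 3 of 8 fell and 1 rose, and of the 18 synthesis genes 2 rose and 0 fell, where 9.07% of all genes rose and 9.19% fell. This comparison shares its light damage libraries with the first, so a gene that is high in those libraries by chance would appear in both with opposite signs.

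Npc2 had 50.6, 55.4 and 50.8 CPM in the A74 libraries, against 86.1, 79.4 and 70.7 CPM in light damage libraries, with a log2 fold change at -0.59 (SE 0.08, edgeR adjusted p = 0.000179). Abca1 had 45.9, 44.1 and 43.4 CPM with A74, against 68.3, 57.6 and 66.0 CPM with light damage alone, with a log2 fold change at -0.52 (SE 0.08, edgeR adjusted p = 0.000377). The groups of neither gene overlapped, and both were called under all 17 alternatives, including a term for Y-linked transcripts. Soat1 had 20.8, 22.5 and 25.2 CPM with A74, against 31.3, 27.9 and 28.3 CPM with light damage alone, without overlap (log2 fold change -0.35, SE 0.10, edgeR adjusted p = 0.0210). It was lost without light damage replicate 1, A74 replicate 1 or A74 replicate 2 (-0.34 to -0.29) and with the term for Y-linked transcripts, with adjusted p from 0.00461 to 0.118 over the alternatives.

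Ch25h had 2, 0 and 0 counts in the A74 libraries, against 45, 29 and 11 in light damage libraries. The ratio of summed counts was 0.0253, with a 95% exact interval of 0.00302 to 0.0944 for counting error alone, and the edgeR adjusted p was 0.00296. With the term for Y-linked transcripts the adjusted p was 0.0639, the highest over its alternatives, which began at 1.26e-11 with DESeq2. Both A74 counts came from A74 replicate 1, and without it the A74 group had 0 counts. Abcg1 had 140, 157 and 148 CPM with A74, against 115, 125 and 143 CPM with light damage alone. Light damage replicate 3 lay within the A74 range, the log2 fold change was 0.21 (SE 0.07, edgeR adjusted p = 0.0469), and only 6 of 17 alternatives called it. It was lost without any single control library, light damage replicate 1 or 2, or A74 replicate 2 or 3 (0.14 to 0.22), with adjusted p from 0.000534 to 0.306.

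On the synthesis side, Cyp51, the lanosterol demethylase, had 51.3, 59.3 and 54.4 CPM with A74, against 48.9, 43.5 and 47.8 CPM with light damage alone (log2 fold change 0.24, SE 0.07, edgeR adjusted p = 0.0323). Msmo1, the sterol methyl oxidase that acts later in the pathway, had 67.1, 69.1 and 75.0 CPM with A74, against 62.9, 53.2 and 64.6 CPM with light damage alone (log2 fold change 0.23, SE 0.08, edgeR adjusted p = 0.0449). Neither pair of groups overlapped, as was the case for 35.2% of all genes, 17.5% higher and 17.7% lower. Cyp51 was called in 11 of 17 alternatives and lost without light damage replicate 2 or A74 replicate 2 or 3 (0.18 to 0.24), with adjusted p from 0.00908 to 0.202. Msmo1 was called in 6 of 17 and was lost without any control library, light damage replicate 1 or 2, or A74 replicate 2 or 3 (0.14 to 0.26), with adjusted p from 0.00729 to 0.281. Neither was called in light damage against control, where Cyp51 had -0.09 (SE 0.07, edgeR adjusted p = 0.404) and Msmo1 -0.12 (SE 0.08, edgeR adjusted p = 0.280). Acat2 had -0.21 (SE 0.10, edgeR adjusted p = 0.155) and Pmvk -0.21 (SE 0.08, edgeR adjusted p = 0.0654), and with the replicate number as a block Pmvk was called (-0.22, edgeR adjusted p = 0.0355). For Sc5d the value was 0.17 (SE 0.07, edgeR adjusted p = 0.129), and leaving out light damage replicate 3 gave a call (0.26, edgeR adjusted p = 0.0101). The largest value not called on this side was that of Tm7sf2 (0.25, SE 0.21), followed by Hsd17b7 (0.20, SE 0.11). The median of the 18 genes was 0.10 on the log2 scale, with 13 above zero.

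Scap had 89.4, 94.3 and 89.0 CPM with A74, against 68.9, 80.3 and 84.0 CPM with light damage alone, without overlap. Its log2 fold change was 0.23 (SE 0.07, edgeR adjusted p = 0.0310), in 11 of 17 alternatives. Without light damage replicate 1 it was 0.14, without light damage replicate 2 or A74 replicate 2 or 3 it was 0.20 to 0.25, and it was not called in any of these, with adjusted p from 0.00465 to 0.213 over the alternatives. The other 5 genes of SREBP control lay between -0.10 and 0.06. Microglia and macrophage markers (11 of 12 lower) summed to 63.8 to 87.9 CPM with A74 and 176 to 288 CPM with light damage alone. Müller glia markers (7 of 8 lower) summed to 4740 to 5310 CPM with A74 and 5880 to 6320 CPM with light damage alone, and rod markers (8 of 10 higher) to 52600 to 55400 CPM with A74 and 31400 to 45900 CPM with light damage alone. Bipolar cell markers were lower in 4 of 5, and of amacrine and ganglion cell markers 0 were called. Over all genes 9.07% were called higher and 9.19% lower. The part of these cell types in the differences was not tested. Xist was high in all 3 A74 libraries and near 0 in all 3 light damage libraries, which no term can separate from A74. No A74 library carried Y-linked transcripts while 2 of the 3 light damage libraries did. With that as a term edgeR called 2 of the 9 efflux and oxysterol genes, Abca1 and Npc2, and 0 of the 18 synthesis genes. Over all 17272 genes tested, the same term left 745 calls, against 3153 without it. The loss of calls was thus not particular to these lists.

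**Figure D3:**
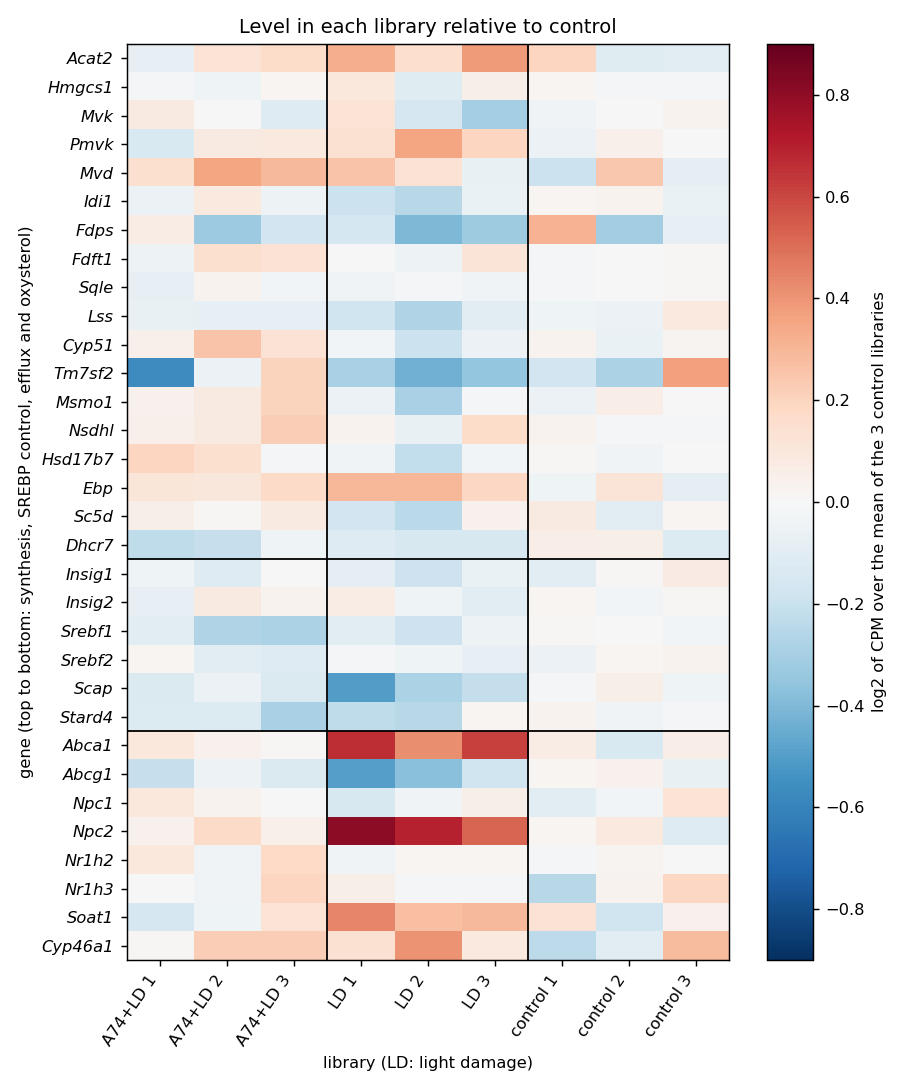
Log2 of the CPM of each gene over its mean in the 3 control libraries (colour scale) for each library of A74 with light damage, light damage alone (LD) and control, with genes in rows by role; Ch25h is left out because it has libraries at 0. Abca1, Npc2 and Soat1 stand out in the 3 light damage columns, and Scap and Abcg1 are lowest in light damage replicate 1. Single libraries of synthesis genes such as Acat2, Pmvk, Mvd, Fdps and Tm7sf2 also depart from their control mean.

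The third comparison set A74 with light damage against control, and it shares its A74 libraries with the second comparison and its control libraries with the first. Of the 33 genes edgeR called 0, where it called 0.892% of all genes, 0.591% higher and 0.301% lower, and DESeq2 called 0. At an unadjusted p under 0.05, edgeR gave 3 of the 33, namely Mvd, Srebf1 and Stard4, and 15.9% of all genes. Npc2 averaged 52.3 ± 2.73 CPM with A74 and 49.2 ± 3.52 CPM in control (SD, n = 3 each, log2 fold change 0.09, SE 0.08, edgeR adjusted p = 0.639). Abca1 averaged 44.5 ± 1.31 CPM with A74 and 43.0 ± 3.31 CPM in control (SD, n = 3 each, log2 fold change 0.05, SE 0.08, edgeR adjusted p = 0.807). The libraries of both groups overlapped for each gene. Soat1 had -0.02 (SE 0.10), Abcg1 -0.13 (SE 0.07) and Scap -0.10 (SE 0.07), where all 3 A74 libraries of Scap lay below the control libraries. The summed counts of Ch25h were 2 with A74 and 6 in control, and their ratio was 0.320, where counting error alone allows 0.0316 to 1.79 (exact, 95%).

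The smallest p-value among the 33 was that of Srebf1, which had 115, 102 and 101 CPM with A74, against 124, 123 and 121 CPM in control, without overlap, where 22.8% of all genes did not overlap, 11.8% higher and 11.0% lower. Its log2 fold change was -0.21 (SE 0.06, edgeR adjusted p = 0.107), and it was called without A74 replicate 1 (-0.28, edgeR adjusted p = 0.0341). Stard4 had 37.3, 37.3 and 33.2 CPM with A74, against 41.6, 39.7 and 40.4 CPM in control (-0.17, SE 0.08, edgeR adjusted p = 0.307). Mvd, the decarboxylase of the mevalonate pathway, had 16.7, 19.3 and 18.5 CPM with A74, against 13.2, 17.9 and 14.2 CPM in control (0.26, SE 0.12, edgeR adjusted p = 0.314). For 29 of the 33 genes the estimate with 2 SE on either side stayed within 0.5 of zero on the log2 scale, and the exceptions were Mvd, Fdps, Tm7sf2 and Ch25h.

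Further genes of cholesterol handling were counted from a list of 47, of which 45 passed the filter. After light damage 7 rose and 8 fell, or 33.3%, where 25.8% of all genes were called. With A74 against light damage 9 rose and 8 fell, or 37.8%, where 18.3% of all genes were called, and with A74 against control edgeR and DESeq2 called 0, with 7 at an unadjusted p under 0.05. Of 11 uptake genes 3 rose and 2 fell after light, where 13.0% of all genes rose and 12.8% fell. Among those that fell, Scarb1, which encodes the HDL receptor SR-BI, had 100, 114 and 111 CPM after light damage, against 155, 153 and 142 CPM in control (log2 fold change -0.47, SE 0.06, edgeR adjusted p = 7.72e-05). With A74 it had 137, 133 and 127 CPM, higher than with light damage alone by 0.29 (SE 0.06, edgeR adjusted p = 0.00481). Vldlr, a lipoprotein receptor that carries fatty acids to photoreceptors in mice, had 244, 278 and 321 CPM after light damage, against 437, 422 and 410 CPM in control (-0.59, SE 0.08, edgeR adjusted p = 0.000128). It had 388, 355 and 389 CPM with A74, higher than with light damage alone by 0.43 (SE 0.08, edgeR adjusted p = 0.00257). Both receptors were lower in every light damage library than in any library of the other groups.

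Abcg4, a neuronal relative of Abcg1, had 111, 117 and 118 CPM after light damage, against 161, 153 and 152 CPM in control (log2 fold change -0.43, SE 0.06, edgeR adjusted p = 8.07e-05). It had 141, 144 and 154 CPM with A74, higher than with light damage alone by 0.34 (SE 0.06, edgeR adjusted p = 0.000856). Abca7, a lipid transporter of phagocytosis, fell after light (log2 fold change -0.39, SE 0.07, edgeR adjusted p = 0.000760). Mylip, an LXR target that marks lipoprotein receptors for degradation, was called only with A74 against light damage (0.33, SE 0.07, edgeR adjusted p = 0.00453), and the difference between its contrasts was not tested. Tspo, a mitochondrial outer membrane protein and a marker of activated microglia, rose after light (log2 fold change 1.56, SE 0.32, edgeR adjusted p = 0.00486). It had 2.49, 3.05 and 2.59 CPM with A74, against 14.6, 10.1 and 6.17 CPM with light damage alone, with a log2 fold change at -1.92 (SE 0.32, edgeR adjusted p = 0.00313).

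Because the libraries split by anterior eye RNA, changes were also taken among libraries alike in it. With more of that RNA there were 2 light damage and 2 control libraries, and with less there was 1 of each. In these 2 groups the split by anterior eye RNA is the same as that by Y-linked transcripts, so the 2 cannot be told apart. The pair with less also differed in Xist, with 22253 counts in control replicate 3 and 1 in light damage replicate 3. The light change of Npc2 was 0.69 (SE 0.07) with more and 0.64 (SE 0.11) with less, and that of Abca1 was 0.58 (SE 0.09) with more and 0.56 (SE 0.12) with less. Soat1 had 0.37 (SE 0.11) with more and 0.26 (SE 0.16) with less. Scap had -0.41 (SE 0.07) with more and -0.17 (SE 0.10) with less, and Abcg1 had -0.46 (SE 0.06) with more and -0.12 (SE 0.09) with less. The differences between the sets were not tested. Pmvk had 0.25 (SE 0.08) with more and 0.19 (SE 0.12) with less, and Acat2 0.19 (SE 0.11) with more and 0.49 (SE 0.15) with less. For A74 against light damage, with 1 against 2 libraries with more anterior RNA and 2 against 1 with less, Npc2 had -0.71 (SE 0.09) with more and -0.41 (SE 0.09) with less, Abca1 -0.45 (SE 0.11) with more and -0.59 (SE 0.10) with less, and Soat1 -0.51 (SE 0.14) with more and -0.25 (SE 0.14) with less. Scap had 0.26 (SE 0.09) with more and 0.13 (SE 0.09) with less, and Abcg1 0.22 (SE 0.08) with more and 0.09 (SE 0.08) with less. Cyp51 had 0.15 (SE 0.10) with more and 0.25 (SE 0.10) with less, and Msmo1 0.21 (SE 0.10) with more and 0.16 (SE 0.10) with less. A set with 1 library in a group borrows its spread from the other libraries. Both the genes and the split were taken from these same libraries, so like signs in the sets are no independent check of the calls.

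**Figure D4:**
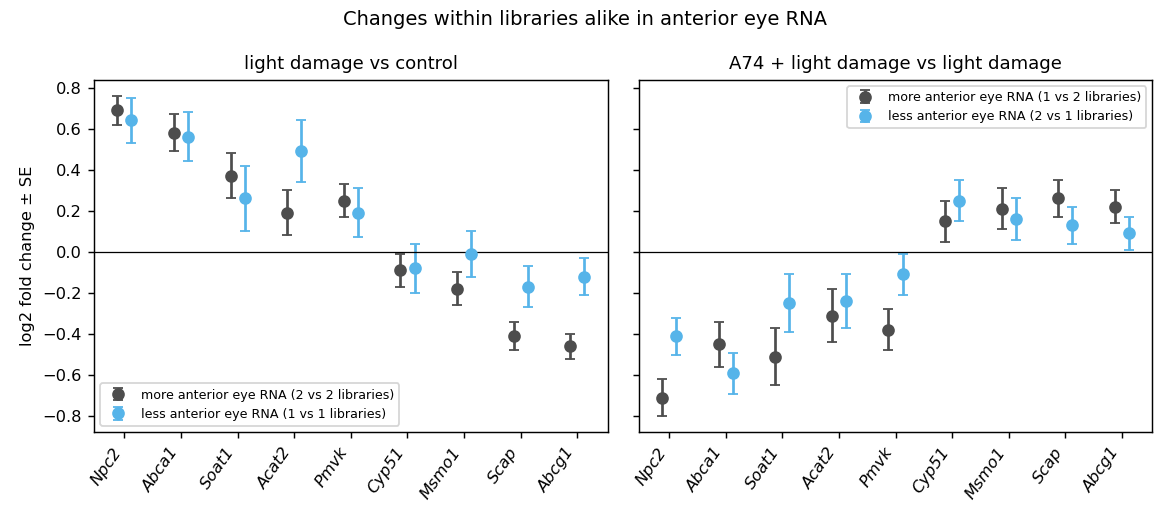
Log2 fold change with SE (vertical axes) of 9 genes called in light damage against control or in A74 with light damage against light damage, taken within the libraries with more (dark) and with less (light blue) anterior eye RNA. All 9 genes keep the same sign in both sets in both panels, with Npc2 at 0.69 and 0.64 and Abcg1 at -0.46 and -0.12 in the light damage panel. In the light damage panel the split is also that by Y-linked transcripts. The genes were picked by calls in these same libraries, so a kept sign is no independent check. Ch25h, also called, is not shown.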

How the data were processed

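Each of the 9 retina libraries has 1 column in the table that the authors deposited, which holds raw counts by gene; all values are whole and column totals differ, so no scaling by the authors is apparent. RSEM 1.3.1, Bowtie2, DESeq2 1.4.5 and build GRCm39 are named without their roles, per the submitters' processing notes. Neither the annotation release nor the strand setting is known from the labels, so reads of overlapping genes or pseudogenes cannot be told apart. Promoters come from another build, GRCm38.p6, and were matched by symbol.

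Genes were filtered with filterByExpr (minimum count 10), then scaled by TMM. The robust quasi-likelihood test of edgeR 4.0.16 (R 4.3.3) was run in 1 fit of 9 libraries and 3 groups. SE is the log2 fold change over the square root of F. Tests were tried on simulated data. DESeq2 1.42.0 was an alternative among 17. All 33 genes are described. Other listed genes were named among the smallest adjusted p-values of each comparison, and some are counted but not reported by name. Members and lists were chosen with earlier results of these data known. Y-linked counts are those of Ddx3y, Kdm5d, Eif2s3y and Uty.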

Additional observations from a re-analysis of the deposited data

How the results depend on the processing

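Of 1679 re-computed log2 fold changes of the 33 genes, 1602 kept their side of the threshold, 56 lost a call, 21 gained 1 and 0 reversed with a call. Most of the 1679 had no call to lose. The main fit called 6 genes higher and 2 lower for light damage against control, 4 higher and 4 lower for A74 against light damage, and 0 for A74 against control. The 56 losses all fell on those calls. Rescaling by DESeq2's size factors lost no call. Leaving out single libraries moved the counts of called genes as follows. For light damage against control, all genes ran from 2818 (without light damage replicate 2) to 5467 (without light damage replicate 3), synthesis genes from 0 to 4, SREBP control genes from 1 to 2 and efflux and oxysterol genes from 4 to 5. For A74 against light damage, all genes ran from 1717 (without light damage replicate 1) to 4514 (without light damage replicate 3), synthesis genes from 0 to 3, SREBP control genes from 0 to 1 and efflux and oxysterol genes from 3 to 5. For A74 against control, all genes ran from 21 (without A74 replicate 2) to 416 (without light damage replicate 3), SREBP control genes from 0 to 1, and both other lists stayed at 0. For light damage against control, synthesis calls were 1 with the 2 groups alone, 0 with DESeq2, and 4 each with the anterior tissue term, the term for Y-linked transcripts, and without light damage replicate 3 and A74 replicate 1 together, where SREBP control calls were 2. For A74 against light damage, synthesis calls were 0 with the 2 groups alone, the anterior tissue term and the Y-linked term, and 1 with DESeq2. SREBP control calls were 0 with the 2 groups alone and the Y-linked term, which also left 2 efflux and oxysterol calls and 745 genes in all, against 3153. For A74 against control, 154 genes were called, against 558 with the 2 groups alone, 296 with DESeq2, 718 without a count filter, 96 with the Y-linked term, and 934 without light damage replicate 3 and A74 replicate 1, where 1 SREBP control gene, Srebf1, was called (-0.28, edgeR adjusted p = 0.00820). The cause of these shifts was not tested. Whether the replicate numbers pair the libraries could not be settled. Deviations of same-numbered libraries correlated between -0.11 and 0.31, and those of differently numbered libraries of different groups between -0.30 and 0.22. Not every library correlated best with its own number. The numbers come from the sample titles and differ from those in the library names of the light damage and A74 groups. Pairing by library name was not examined. With the replicate number as a block, 4588 genes were called for light damage against control, 3362 for A74 against light damage and 136 for A74 against control, Acat2 was lost for light damage (edgeR adjusted p = 0.0502), and 3 synthesis genes were called for A74 against light damage. Depth limits Ch25h, Fdps and Nr1h3 most, which had at most 64 counts in a library.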

Other observations

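Of 3 tested genes of oxysterol and bile acid metabolism, 2 rose after light damage, where 13.0% of all genes rose. The third, Cyp7b1, an oxysterol hydroxylase, was not called (0.37, SE 0.20, edgeR adjusted p = 0.201). Cyp27a1, the mitochondrial sterol 27-hydroxylase, had 12.0, 12.0 and 10.3 CPM after light damage, against 5.72, 6.94 and 10.1 CPM in control (log2 fold change 0.59, SE 0.17, edgeR adjusted p = 0.0190). It had 7.72, 8.02 and 6.57 CPM with A74, a log2 fold change of -0.62 against light damage (SE 0.17, edgeR adjusted p = 0.0205). Cyp39a1, a 24-hydroxycholesterol hydroxylase, had 8.54, 8.22 and 7.02 CPM after light damage, against 5.30, 6.21 and 4.79 CPM in control (0.54, SE 0.16, edgeR adjusted p = 0.0194), and 4.97, 5.44 and 4.45 CPM with A74, a log2 fold change of -0.68 against light damage (SE 0.16, edgeR adjusted p = 0.00846). Gramd1b, which carries cholesterol from the plasma membrane to the endoplasmic reticulum, had 456, 510 and 592 CPM after light damage, against 720, 678 and 696 CPM in control (-0.43, SE 0.08, edgeR adjusted p = 0.00123). Cyp27a1, Cyp39a1 and Gramd1b were chosen after their values were seen.

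Lipa, the lysosomal acid lipase that frees cholesterol from its esters, had 32.6, 34.0 and 20.4 CPM after light damage, against 21.0, 20.4 and 16.7 CPM in control. The value of light damage replicate 3 lay among the control values, and edgeR did not call Lipa in light damage against control (log2 fold change 0.59, SE 0.19, edgeR adjusted p = 0.0523).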
